A study of Homo sapiens with 2 samples.

Results

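The genes described here encode the enzymes that place and remove chemical marks on histones and on DNA. They are the protein-coding genes outside chromosome 13 whose symbol is KDM, KMT, HDAC, SIRT, DNMT, TET, EZH, SETD, PRMT, KAT or SUV39H followed by digits and an optional letter. The rule found 78 of the 31845 genes in the deposited table. The symbols KDM5D, DNMT3L, KDM4E and KDM4F also follow the rule and were not analysed here. RNA sequencing had been run on 1 library of an olaparib-resistant Capan-1 derivative and 1 library of parental Capan-1 cells. Capan-1 comes from a pancreatic adenocarcinoma and carries mutant BRCA2, although the labels' cell type field gives breast cancer. Whether the resistant derivative kept the BRCA2 genotype of the parental cells was not examined here. Olaparib inhibits PARP enzymes, and the resistant cells had been selected with rising concentrations of it, 15 nM at the start and 128 uM at the end. The labels do not say whether the drug was present at harvest or whether the derivative is 1 clone.

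The resistant library held 34507480 counts and the parental library 34572931. The parental column carries the name of the line. The labels do not spell out the heading of the other column, RCA. It was assigned to the resistant cells by elimination, and all directions given here depend on this. All 5 epithelial markers (EPCAM, CDH1, KRT8, KRT18 and KRT19) were present, with 168925 counts in resistant cells and 112400 in parental cells in sum. The 4 fibroblast markers in the table summed to 574 resistant and 132 parental counts. Of these, LUM had 523 resistant and 35 parental counts, while COL1A1 had 38 resistant and 97 parental counts. DCN and COL3A1 had at most 8 counts in either library. The 2 endothelial markers summed to 3 in either library. The 5 leukocyte markers summed to 2163 resistant and 30832 parental counts, the parental ones nearly all from the secreted enzyme LYZ, and the 2 acinar markers to 989 resistant and 536 parental counts. The part of other cell types in the results was not tested. As each group is a single library, no replicate error is known, no test was run, and the differences describe only this pair of libraries. Intervals are 95% exact intervals of the ratio of the counts and cover counting error only. For a lower gene, the fold and its interval are those of parental over resistant. A value in parentheses after a pair of counts is the log2 ratio of the scaled counts, resistant over parental. In such bulk RNA, a lower level per cell and fewer cells with the transcript cannot be told apart.

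Histone lysine residues carry methyl and acetyl groups, which writers add and erasers remove. Acetylation and methylation of lysine 4 of histone H3 (H3K4) mark active promoters and enhancers, while methylation of H3K9 and H3K27 accompanies silent chromatin and that of H3K36 transcribed gene bodies. Methylation of H4K20 is tied to replication timing and chromatin compaction, PRMT enzymes methylate arginine in histones and in many RNA-binding proteins, and DNMT and TET enzymes place and oxidise methyl groups on cytosine.

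Of the 78 genes, 75 reached 50 counts in the higher library and are compared. A gene is called higher or lower here when its scaled counts differed at least 2-fold. By this rule 3 were higher in the resistant library and 8 were lower. Over the 11933 protein-coding genes outside chromosome 13 at the same minimum, 5.13% were higher and 8.61% lower. The share of enzyme genes called was therefore near the background. The median log2 ratio of the 75 genes was -0.25, against 0.09 over those coding genes, with 32 genes above 0 and 43 below. Of the 11933 coding genes, 6147 were above 0 and 5786 below. Equal levels lay outside the counting interval for 30 genes above 1 and 39 below 1, where 46.2% and 42.8% of coding genes lay, and inside it for the other 6. By enzyme group, all 7 measured arginine methyltransferase genes were above 0, and all 4 class IIa deacetylase genes were below 0. All 6 COMPASS-type H3K4 methyltransferase genes (KMT2A to KMT2D, SETD1A and SETD1B) and all 3 TET genes were also below 0. With the trend of the ratio with length removed, however, KMT2A was at 0.04 and TET1 at 0.20. The median of all genes was then 0.14.

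**Figure D1:**
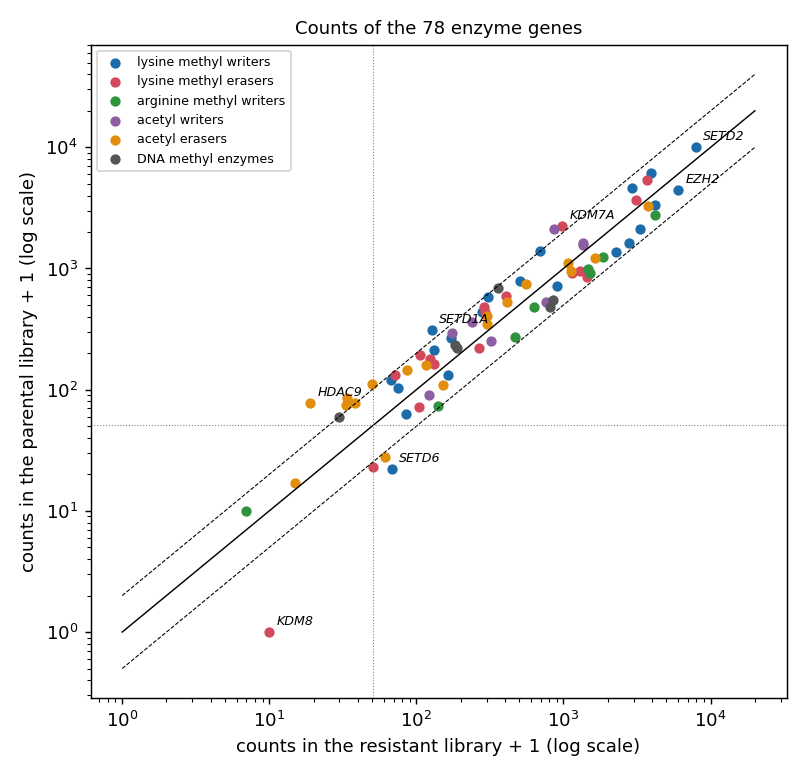
Counts of the 78 genes, plus 1, in the resistant library (horizontal) and the parental library (vertical), both on log scales, coloured by enzyme class. The solid line marks equal counts, the dashed lines a 2-fold difference of raw counts and the dotted lines the 50-count minimum. Most genes lie between the dashed lines, and most of those outside lie under 200 counts.

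Depth differed widely among these genes. The median count was 319 in resistant cells and 477 in parental cells. Of the 23 genes whose higher library had 50 to under 200 counts, 3 were higher and 5 lower (13% and 21.7%), and coding genes of that depth gave 11.5% and 18.3%. Of the 52 genes with 200 counts or more, 0 were higher and 3 were lower (5.77%), where coding genes gave 3.61% and 6.29%. The 3 deeply counted genes were KAT2B, KDM7A and SETD1A.

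The stretch of each gene behind its values also differed. The count divided by the deposited FPKM value (fragments scaled to gene length and library depth) gives the gene length that the authors used, scaled here on 575 coding genes with 1 annotated transcript. This length ran from 298 to 19422 bases over the 75 genes. It reached at least 80% of the longest annotated transcript for 20 genes (26.7%) and was under 20% of it for 33 (44.0%), against 35.5% and 26.2% of coding genes outside chromosome 13. For 23 genes it equalled a coding transcript of the gene within 0.5%. For 44 it equalled only a transcript of another type, among them 29 with a retained intron and 11 processed transcripts, and for 8 it equalled none. Where transcripts of more than 1 other type matched, only 1 type was counted. Genes with many annotated transcripts can match by coincidence. Of the 575 scaling genes, 73.6% matched their own single transcript within 0.5%, so a true match can also be missed. Whether the counts cover only that transcript is not given in the sources used here. Of the 11 called genes, KAT2B and KDM7A matched a coding transcript, SETD1A matched none, and the other 8 (HDAC4, HDAC6, HDAC7, HDAC8, HDAC9, HDAC10, KDM4C and SETD6) matched only such other transcripts.

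Among the lysine methyl writers, the 6 COMPASS-type H3K4 methyltransferases all had a log2 ratio below 0, at a median of -0.88. Each has its own COMPASS-type complex, and KMT2C and KMT2D mark enhancers. SETD1A had 127 counts in resistant cells and 309 in parental cells, 2.42-fold lower (interval 1.96 to 3.0). KMT2D had 691 resistant and 1391 parental counts, a log2 ratio of -1.0 that fell just short of the 2-fold size. KMT2B had 305 resistant and 584 parental counts and KMT2C 66 resistant and 120 parental counts, with log2 ratios of -0.93 and -0.84. SETD1B had 130 resistant and 211 parental counts (-0.69), and KMT2A, the gene rearranged in some leukaemias, 3904 resistant and 6106 parental counts (-0.64). None of the 6 intervals included equal levels. KMT2A overlaps exons of AP001267.5 and KMT2B those of IGFLR1. For 5 of the 6, all but KMT2C, the length behind the FPKM value was over 5000 bases. The group's median was -0.31 once the trend of the ratio with length over all genes was removed, which left the median of all genes at 0.14. SETD1A was then at -0.83, KMT2B at -0.42, KMT2D at -0.20, SETD1B at -0.19 and KMT2A at 0.04. KMT2C, whose length behind the FPKM value was 538 bases, or 3.19% of its longest transcript, was at -0.84 both ways. Removing the trend hardly moves genes of such length, such as DNMT1 on 529 bases, at 0.62 both ways. The unchanged value is therefore no check on KMT2C.

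The promoters of 3 of these genes are shown because all members of the group lay below 0. RefSeq sequences of 250 bases before to 50 after the annotated start were found for 73 of the 78 genes and not for HDAC5, KAT6A, KAT8, SETD1B and SIRT7. They are of build GRCh38.p14, whereas hg19 is named for the deposited values. Capitals mark a match, on either strand, to one of these motifs, and neighbouring matches can overlap. A GC box was searched as GGGCGG and a CCAAT box by its name's letters. The ETS motif was CCGGAAG and the TATA box TATAAA. The E2F motif was TTTGGCGC or else TTTCCCGC, and the CRE was TGACGTCA. The YY1 and NRF1 motifs are named only. The YY1 motif lies in the capitals shortly after the start in KMT2B, PRMT1 and PRMT5.
KMT2B promoter, chr19:35717753-35718052, plus strand: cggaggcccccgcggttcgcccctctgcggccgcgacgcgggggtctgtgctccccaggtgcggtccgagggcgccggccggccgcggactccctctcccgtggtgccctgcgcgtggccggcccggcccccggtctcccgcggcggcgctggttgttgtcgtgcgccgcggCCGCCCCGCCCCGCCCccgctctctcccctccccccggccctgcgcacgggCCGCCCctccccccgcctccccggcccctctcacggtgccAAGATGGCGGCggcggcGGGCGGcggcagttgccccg
KMT2D promoter, chr12:49060745-49061044, minus strand: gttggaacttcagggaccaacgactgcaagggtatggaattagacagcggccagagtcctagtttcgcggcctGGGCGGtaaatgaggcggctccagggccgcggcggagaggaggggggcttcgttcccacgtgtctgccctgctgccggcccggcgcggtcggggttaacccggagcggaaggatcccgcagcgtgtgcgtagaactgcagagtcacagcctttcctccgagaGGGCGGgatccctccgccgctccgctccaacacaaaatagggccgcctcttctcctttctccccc
SETD1A promoter, chr16:30957504-30957803, plus strand: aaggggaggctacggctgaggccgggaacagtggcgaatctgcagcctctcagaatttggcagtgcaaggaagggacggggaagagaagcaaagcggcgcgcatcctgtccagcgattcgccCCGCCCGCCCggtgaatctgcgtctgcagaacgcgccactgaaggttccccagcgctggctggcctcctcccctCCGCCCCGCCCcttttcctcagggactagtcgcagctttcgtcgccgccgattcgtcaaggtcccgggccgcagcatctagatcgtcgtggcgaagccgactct
All 5 COMPASS-type promoters in the table held a GC box, as did 65.8% of the 73 enzyme promoters, and 0 of the 5 held a CCAAT box, against 32.9% of the 73. Over all 35116 promoters in the table, which include those of non-coding genes, 45.0% held the GC box letters and 34.6% the CCAAT letters. The group's median number of CpG dinucleotides was 36, against 29 over the 73 enzyme genes and 14 over all promoters. The TATA letters occurred in 0 of the 73 enzyme promoters and in 11.5% of all promoters. A match is a run of letters and says nothing on binding.

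The writers of repressive and replication-linked marks had mostly positive log2 ratios below 2-fold. EZH2, the catalytic subunit of Polycomb repressive complex PRC2, had 6018 counts in resistant cells and 4452 in parental cells, a log2 ratio of 0.44. Its paralog EZH1 had 162 resistant and 132 parental counts, and the interval of its ratio, 0.976 to 1.57, included equal levels. SUV39H2, an H3K9 trimethylating enzyme of heterochromatin, had 3287 resistant and 2110 parental counts (0.65). SUV39H1 had 84 resistant and 62 parental counts (0.44), again with an interval that included equal levels, 0.971 to 1.93. KMT5A, which monomethylates H4K20 and is regulated through the cell cycle, had 2287 resistant and 1372 parental counts (0.75). KMT5B, which adds further methyl groups there, had 907 resistant and 719 parental counts (0.34), while KMT5C, its paralog, had 74 resistant and 103 parental counts (-0.46). SETD2, the H3K36 trimethylating enzyme, was the most deeply counted gene of all 78, with 7932 resistant and 10057 parental counts and a log2 ratio of -0.33, which was 0.13 with the length trend removed.

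The remaining SET domain genes went both ways. SETD6, which methylates the NF-kB subunit RELA, had 67 counts in resistant cells and 21 in parental cells, 3.21-fold higher (interval 1.94 to 5.52) and the highest ratio of the 75 genes. It overlaps exons of CNOT1, and its length behind the FPKM value, 584 bases, equalled a retained-intron transcript. SETD7, a monomethyltransferase of H3K4 and of other proteins, had 2775 resistant and 1609 parental counts (0.80), and SETD3, an actin histidine methyltransferase, had 4163 resistant and 3344 parental counts (0.33). KMT2E, which is related to the COMPASS-type group but is thought to lack its activity, had 2941 resistant and 4622 parental counts (-0.64). With the length trend removed KMT2E was at -0.21. SETD4, SETD5 and SETD9 had log2 ratios from -0.64 to -0.61. Over all 21 lysine methyl writers the median was -0.46 and the mean -0.14, and 1 gene was higher and 1 lower by the 2-fold rule.

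**Figure D2:**
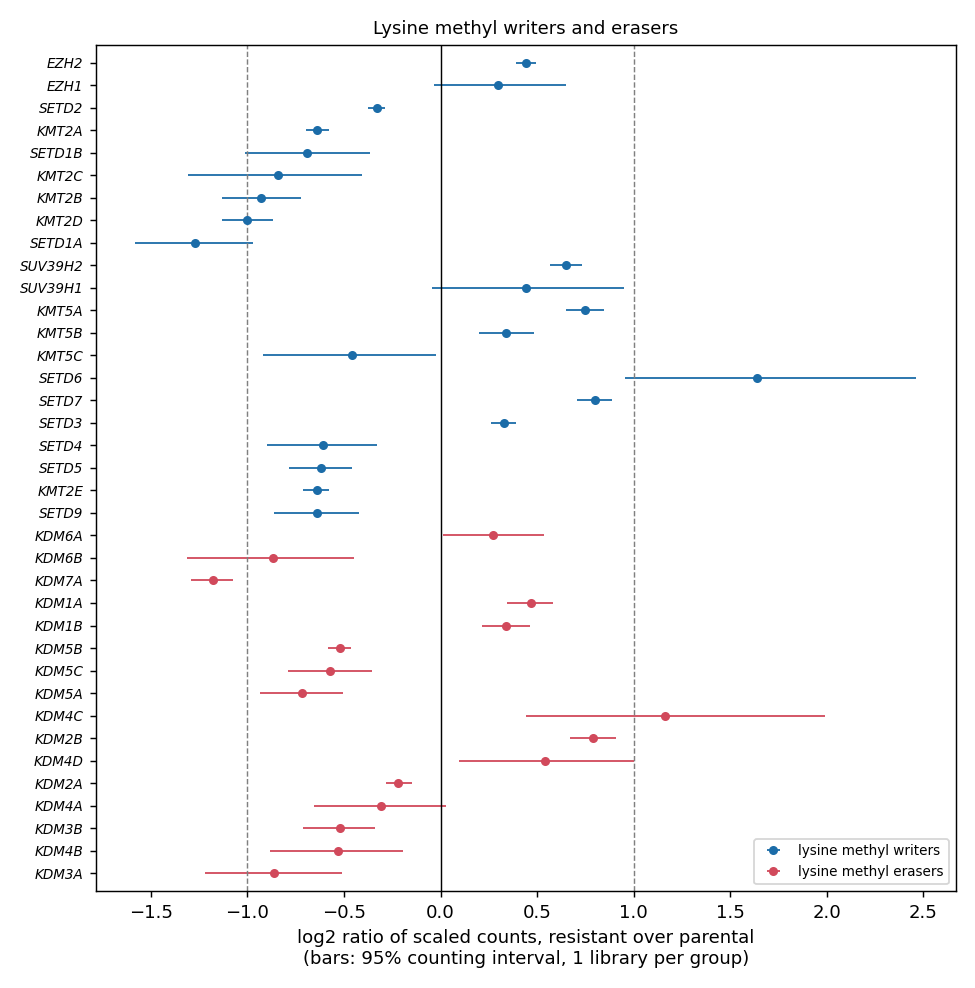
Log2 ratio of scaled counts, resistant over parental, for the 21 lysine methyl writers (blue) and the 16 lysine methyl erasers at the minimum (red). Points are single-library ratios with a prior of 1 count, bars are 95% counting intervals, and dashed lines mark a 2-fold difference. The 6 COMPASS-type H3K4 methyltransferases lie between -1.27 and -0.64.

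Of the 17 lysine methyl erasers, 16 reached the minimum, with a median log2 ratio of -0.41 and a mean of -0.17. KDM7A, a JmjC enzyme that acts on H3K9 and H3K27, had 980 counts in resistant cells and 2242 in parental cells, 2.27-fold lower (interval 2.11 to 2.45). With the length trend removed its log2 ratio went to -0.65 (-1.18 before). KDM4C, which acts on H3K9 and H3K36, had 50 resistant and 22 parental counts, 2.29-fold higher (interval 1.36 to 3.97), on 342 bases. Its paralogs KDM4A and KDM4B had negative log2 ratios, -0.31 and -0.53, and KDM4D a positive one, 0.54. KDM8, a JmjC hydroxylase, had 9 resistant and 0 parental counts, under the minimum.

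The erasers of H3K4 methylation divided by enzyme type. The flavin-dependent pair was above 0, with KDM1A (LSD1) at 1302 resistant and 948 parental counts (0.47) and KDM1B at 1146 resistant and 910 parental counts (0.34). The JmjC enzymes of the KDM5 family were below 0, with KDM5A at 288 resistant and 477 parental counts (-0.72), KDM5C at 293 resistant and 438 parental counts (-0.57) and KDM5B at 3681 resistant and 5322 parental counts (-0.52). With the length trend removed KDM5B was at -0.22. By the length behind the FPKM value, KDM1A, KDM5A and KDM5C matched a retained-intron transcript and no coding one. Their lengths were 525, 670 and 394 bases, and KDM5A overlaps exons of CCDC77. The median log2 ratio of the coding genes around each of these erasers had the same sign as the eraser's own. It was 0.27 near KDM1A, 0.16 near KDM1B, -0.44 near KDM5A, -0.30 near KDM5C and -0.34 near KDM5B. The parts of enzyme type and of neighbourhood in this division were not tested. The COMPASS-type H3K4 methyltransferases and the KDM5 erasers both lay below 0, and SETD7 above it. The H3K27 demethylases also differed, KDM6A (UTX) with 264 resistant and 220 parental counts (0.27) and KDM6B (JMJD3) with 71 resistant and 131 parental counts (-0.87). With the length trend removed KDM6B was at -0.44. KDM2B, which recruits a Polycomb complex to CpG islands, had 1447 resistant and 843 parental counts (0.79), and its paralog KDM2A had 3130 resistant and 3659 parental counts (-0.22, or 0.13 with the length trend removed). The H3K9 demethylases KDM3A, a gene induced by hypoxia, and KDM3B were at -0.86 and -0.52.

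All 7 arginine methyltransferase genes at the minimum had a log2 ratio above 0, with a counting interval above equal levels and 0 genes past 2-fold. Among coding genes outside chromosome 13, 46.2% had an interval above equal levels. Their median log2 ratio was 0.60 and their range 0.41 to 0.96. PRMT1, the main enzyme of asymmetric dimethylation, had 465 counts in resistant cells and 272 in parental cells, a ratio of 1.72 (interval 1.48 to 2.01). PRMT5, the main enzyme of symmetric dimethylation, had 1459 resistant and 991 parental counts, or 1.48-fold (interval 1.37 to 1.61). PRMT3, which modifies a ribosomal protein, had 4173 resistant and 2776 parental counts (0.60), and PRMT6, which acts on arginine in histone H3, had 1509 resistant and 912 parental counts (0.74). PRMT2 had 1867 resistant and 1250 parental counts (0.59), PRMT7, a monomethylating enzyme, 634 resistant and 479 parental counts (0.41), and PRMT9 140 resistant and 72 parental counts (0.96). PRMT8, a brain enzyme, had 6 resistant and 9 parental counts. With the length trend removed, the 7 genes had a median of 0.73. By the length behind the FPKM value, PRMT2 and PRMT5 matched a coding transcript, PRMT5 on 337 bases, and PRMT6 matched none. PRMT1, PRMT3, PRMT7 and PRMT9 matched only a transcript of another type, PRMT1 on 298 bases and PRMT9 on 401. PRMT1 overlaps exons of ADM5 and PRMT7 those of SMPD3. CARM1, another arginine methyltransferase outside the naming rule, looked up after these values were seen, had 195 resistant and 123 parental counts (0.67).

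The promoters of 3 arginine methyltransferase genes are shown for comparison with those of the COMPASS-type group, with the same matches in capitals.
PRMT1 promoter, chr19:49677021-49677320, plus strand: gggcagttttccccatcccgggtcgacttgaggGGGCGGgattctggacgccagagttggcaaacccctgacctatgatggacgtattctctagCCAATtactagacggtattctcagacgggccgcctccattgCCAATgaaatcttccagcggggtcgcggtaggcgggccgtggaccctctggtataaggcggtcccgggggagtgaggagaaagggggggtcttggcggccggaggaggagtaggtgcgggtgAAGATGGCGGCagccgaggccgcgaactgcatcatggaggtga
PRMT3 promoter, chr11:20387466-20387765, plus strand: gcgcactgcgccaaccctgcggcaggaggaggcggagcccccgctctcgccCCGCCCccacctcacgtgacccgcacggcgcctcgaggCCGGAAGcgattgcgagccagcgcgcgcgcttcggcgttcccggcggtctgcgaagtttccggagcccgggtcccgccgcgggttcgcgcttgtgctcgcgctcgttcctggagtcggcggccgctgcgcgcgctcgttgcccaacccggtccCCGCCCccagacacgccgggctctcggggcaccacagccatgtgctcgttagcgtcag
PRMT5 promoter, chr14:22929327-22929626, minus strand: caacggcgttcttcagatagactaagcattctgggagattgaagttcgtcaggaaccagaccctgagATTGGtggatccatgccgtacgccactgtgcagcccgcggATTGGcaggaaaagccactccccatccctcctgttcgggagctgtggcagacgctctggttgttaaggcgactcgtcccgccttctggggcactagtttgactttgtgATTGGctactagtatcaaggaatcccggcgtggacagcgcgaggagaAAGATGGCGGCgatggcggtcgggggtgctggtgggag
Of the 8 arginine methyltransferase promoters, 5 held a GC box and 3 a CCAAT box. The YY1 letters occurred in 2 of the 8, just after the start in PRMT1 and PRMT5, in 1 of the 5 COMPASS-type promoters, in 6.85% of the enzyme promoters and in 0.849% of all promoters. The median CpG number of the 8 was 29, the same as over the 73 enzyme genes.

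Among the 8 acetyl writers, with a median log2 ratio of -0.23, KAT2B (PCAF) had the largest difference. It had 866 counts in resistant cells and 2120 in parental cells, 2.43-fold lower (interval 2.25 to 2.63), over the full length of its longest transcript. It went to -0.96 (-1.28 before) once the length trend was removed, just inside 2-fold. Its paralog KAT2A (GCN5), which serves in the same kinds of complex, had 173 resistant and 294 parental counts (-0.75). KAT14, a subunit of the ATAC acetyltransferase complex, had 121 resistant and 90 parental counts (0.43). Of the MYST enzymes, KAT7 had 756 resistant and 532 parental counts (0.52) and KAT5 (TIP60), which takes part in the DNA damage response, 319 resistant and 252 parental counts (0.35). KAT8 (MOF), which acetylates H4K16, had 239 resistant and 360 parental counts (-0.58). KAT6A and KAT6B were at -0.25 and -0.21, and KAT6B at 0.17 with the length trend removed. The acetyltransferases EP300 and CREBBP, outside the naming rule and looked up after these values were seen, had 1742 resistant and 2931 parental counts (-0.74) and 148 resistant and 275 parental counts (-0.88).

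The acetyl erasers differed by class. The nuclear class I enzymes of the large co-repressor complexes were above 0 within 2-fold, with HDAC1 at 3739 resistant and 3290 parental counts (0.19), HDAC2 at 1649 resistant and 1210 parental counts (0.46) and HDAC3 at 1125 resistant and 955 parental counts (0.25). HDAC8, the class I enzyme that deacetylates cohesin, had 32 resistant and 74 parental counts, 2.30-fold lower (interval 1.5 to 3.60). All 4 class IIa genes, whose products shuttle between nucleus and cytoplasm and bind MEF2 factors, were below 0, with a median of -1.08. HDAC9 had 18 counts in resistant cells and 76 in parental cells, 4.19-fold lower (interval 2.48 to 7.45), the lowest ratio of all 75 genes. HDAC7 had 49 resistant and 111 parental counts, 2.25-fold lower, and HDAC4 37 resistant and 76 parental counts, 2.04-fold lower. HDAC5, the most deeply counted of the class, had 414 resistant and 528 parental counts, a log2 ratio of -0.34. The 3 called class IIa genes each had at most 111 counts in either library, and each matched only a non-coding transcript. HDAC7 overlaps exons of SLC48A1 and HDAC8 those of AL133500.1.

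The other deacetylases were mixed. HDAC6, a cytoplasmic tubulin deacetylase, had 60 counts in resistant cells and 27 in parental cells, 2.24-fold higher (interval 1.40 to 3.67). HDAC10, a polyamine deacetylase of the same class, had 33 resistant and 85 parental counts, 2.56-fold lower (interval 1.69 to 3.95), and overlaps MAPK12. HDAC11 had 303 resistant and 405 parental counts (-0.41). The NAD-dependent sirtuins all lay within 2-fold, and 5 of the 6 at the minimum were below 0, SIRT5 among them at -0.03 and above 0 when scaled by the upper quartile. SIRT7, a nucleolar enzyme, had 86 resistant and 144 parental counts (-0.73), SIRT1 556 resistant and 738 parental counts (-0.40) and the mitochondrial SIRT3 115 resistant and 159 parental counts (-0.45). SIRT6, a chromatin enzyme linked to DNA repair, had 151 resistant and 108 parental counts (0.49). The intervals of SIRT2 and of the mitochondrial SIRT5 included equal levels, and SIRT4 had 14 resistant and 16 parental counts. In the 18 acetyl erasers, 17 of which reached the minimum, the median log2 ratio was -0.40, with 1 gene higher and 5 lower. The called ones all had under 200 counts in the higher library. The only other acetyl erasers of 50 to under 200 counts were SIRT3, SIRT6 and SIRT7. Among coding genes of that depth, 11.5% were higher and 18.3% lower, and among those of all depths 5.13% and 8.61%. The first shares stand beside the called ones and these sirtuins, and the second beside all 17 genes. With a minimum of 200 counts the median of the acetyl erasers was -0.11.

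The DNA methyltransferases split. DNMT1, which copies methylation after replication, had 842 counts in resistant cells and 550 in parental cells, a ratio of 1.54 (interval 1.38 to 1.72). It overlaps exons of S1PR2, and its length behind the FPKM value, 529 bases, equalled only a retained-intron transcript. DNMT3B, a de novo enzyme, had 815 resistant and 483 parental counts, or 1.70-fold (interval 1.52 to 1.90), while DNMT3A, the other de novo enzyme, had 360 resistant and 687 parental counts, 1.90-fold lower (interval 1.67 to 2.16). Among gene pairs that differ only in their last letter, the distance between these was 1.68 on the log2 scale, close to the 1.69 between KDM4C and KDM4B, the largest. The TET genes were all below 0, although TET1 was at 0.20 with the length trend removed. TET3 had 29 resistant and 58 parental counts (-0.97), TET1 181 resistant and 231 parental counts (-0.34) and TET2 189 resistant and 221 parental counts (-0.22), and the interval of TET2 included equal levels.

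**Figure D3:**
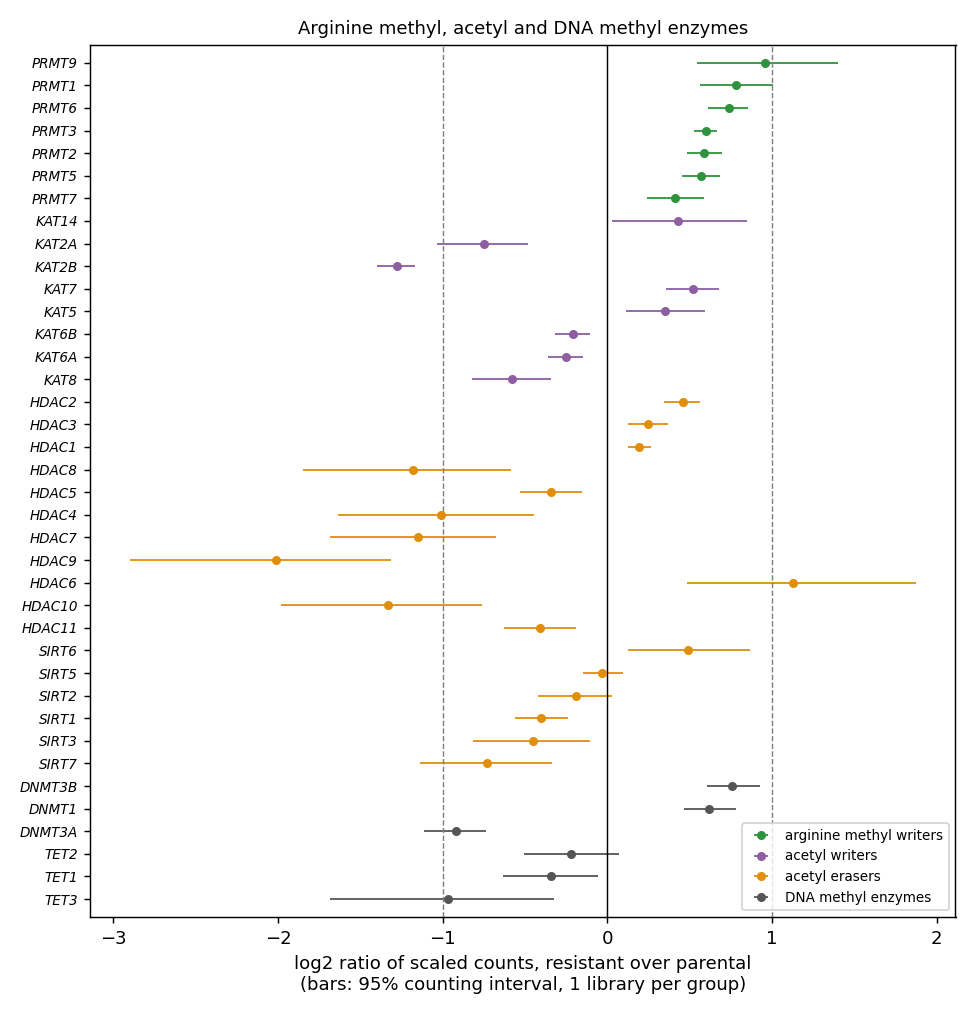
Log2 ratio of scaled counts, resistant over parental, for the arginine methyl writers (green), acetyl writers (purple), acetyl erasers (orange) and DNA methyl enzymes (grey) at the minimum. Points are single-library ratios with a prior of 1 count, bars are 95% counting intervals and dashed lines mark a 2-fold difference. All 7 green points lie between 0.41 and 0.96, and HDAC9 at -2.01 is the lowest.

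On the authors' FPKM scale, which corrects for the length used, the levels covered a wide range. The highest was KMT5A, at 59.2 FPKM in resistant cells and 34.1 in parental cells. PRMT5 had 50.9 FPKM in resistant and 33.1 in parental cells, HDAC1 49.1 in resistant and 41.4 in parental cells, and EZH2 47.4 in resistant and 33.6 in parental cells. HDAC2, SETD3, HDAC3 and KDM1A followed, at 29.1 to 39 FPKM in resistant and 20.3 to 28.3 in parental cells. In the parental library HDAC1 stood first. SETD7 had 20.4 FPKM in resistant and 11.3 in parental cells. The COMPASS-type H3K4 methyltransferases lay far lower, from KMT2A at 3.36 FPKM in resistant and 5.04 in parental cells to SETD1B at 0.187 FPKM in resistant and 0.290 in parental cells. Class IIa deacetylases had at most 2.79 FPKM in resistant and 3.41 in parental cells, those of HDAC5. The order between genes rests on lengths that ran from full transcripts to short fragments, and with 1 library per group no spread around it is known.

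Length moved with the ratio across these genes. The 12 genes with a length over 5000 bases had a median log2 ratio of -0.66 and the 39 under 1000 bases one of 0.25. Over all genes at the minimum the same medians were -0.39 (1189 genes) and 0.19 (7081 genes). The Spearman correlation of ratio and length was -0.29 across the 75 enzyme genes and -0.15 across all 15102 genes. Genes are not replicates, and all points share the same 2 libraries. With the trend removed, the median of the 75 genes was 0.04, against 0.14 over all 15102 genes. KAT2B, KDM7A and SETD1A were then no longer called lower. The part of length in these ratios was not tested further.

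**Figure D4:**
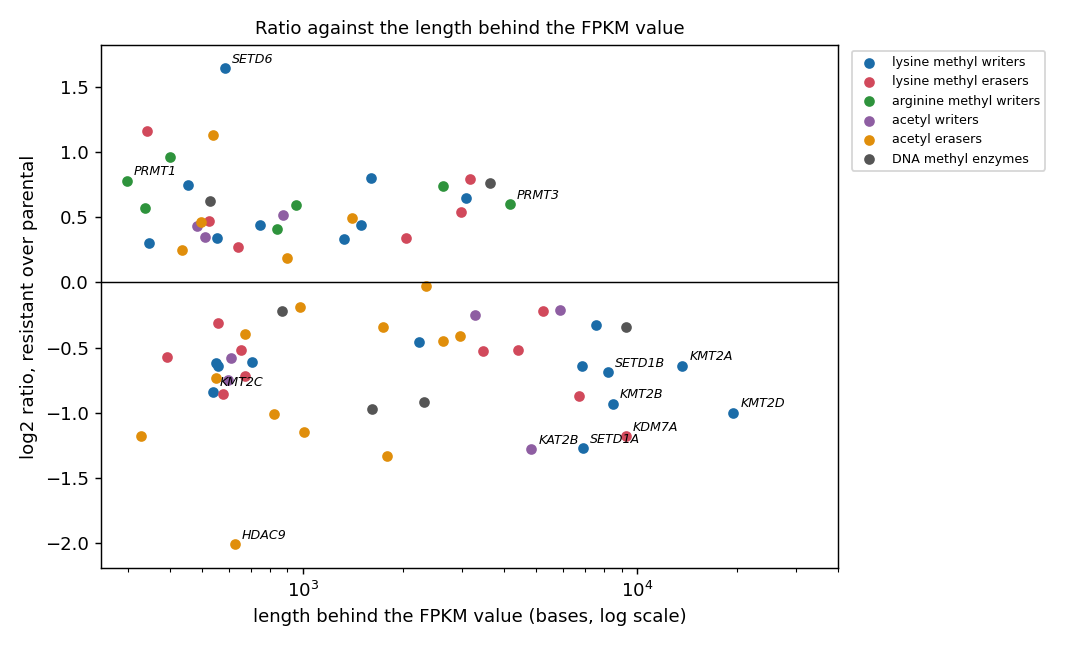
Log2 ratio, resistant over parental, against the length behind the FPKM value in bases (log scale), 1 point per gene at the minimum, coloured by enzyme class. The 12 genes beyond 5000 bases all lie below 0, and genes under 1000 bases lie on both sides.

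Chromosomal neighbours moved with part of the genes as well. For each gene the median log2 ratio of the 10 measured coding genes on each side was taken, with fewer near a chromosome end (12 in all for SIRT3 and 10 for PRMT2 and KDM5A). It had the same sign as the gene's own ratio for 44 of 75 genes, and the Spearman correlation across genes was 0.37. The neighbours' median was above 0 for 51 of the 75 genes and the gene's own ratio for 32, so part of the shared signs follows from these numbers alone. Neither value was computed over all coding genes. Near DNMT3A on chromosome 2 the neighbours' median was -0.69, beside the gene's own -0.92. KMT5A, KDM2B and SETD1B on chromosome 12 had neighbours at 0.79, 0.72 and 0.80, beside their own 0.75, 0.79 and -0.69. Neighbours of DNMT3B were at -0.19, of KAT2B at 0.17, of HDAC9 at -0.18 and of SETD6 at -0.26. The 6 COMPASS-type H3K4 methyltransferases had a median of -1.20 relative to their neighbours (-0.88 before), the class IIa deacetylases one of -1.08 and the arginine methyltransferases one of 0.31 (0.60 before). The part of the neighbourhood in these ratios was not tested.

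**Figure D5:**
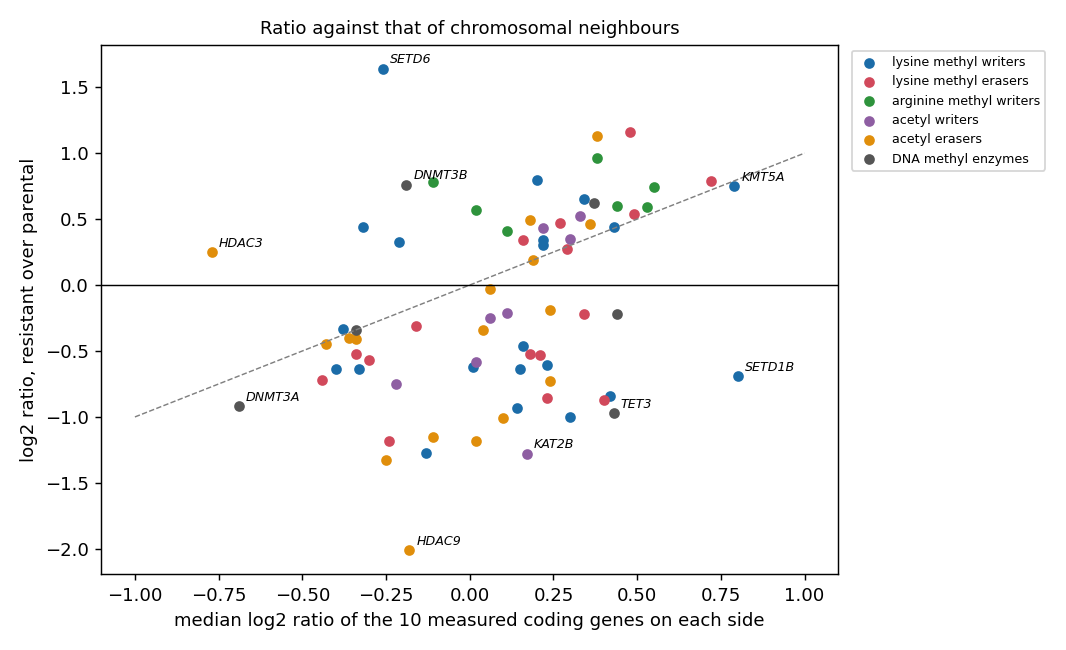
Log2 ratio, resistant over parental, of each gene against the median log2 ratio of its 10 measured coding neighbours on each side (fewer for SIRT3, PRMT2 and KDM5A), coloured by enzyme class, with the dashed line marking equality. KMT5A and DNMT3A lie near the line, and SETD6, HDAC9, KAT2B and SETD1B far from it.

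Subunits and related enzymes that the naming rule leaves out were listed separately. Of 12 COMPASS subunits, the partners of these H3K4 methyltransferases, 0 were called, the median was -0.35 and 3 were above 0. NCOA6 had 130 resistant and 234 parental counts (-0.83) and MEN1, menin, 103 resistant and 172 parental counts (-0.72). Of 28 Polycomb genes at the minimum, 1 was higher and 3 lower, with a median of 0.01. PCGF3 had 56 resistant and 24 parental counts (1.2), BCORL1 60 resistant and 130 parental counts (-1.09), PHC1 29 resistant and 61 parental counts (-1.04) and JARID2, a PRC2 cofactor, 871 resistant and 1786 parental counts (-1.03). Of 29 HDAC complex subunits, 2 were higher and 2 lower, with a median of -0.21. The scaffold SIN3B had 27 resistant and 93 parental counts (-1.74), RCOR2 93 resistant and 30 parental counts (1.61) and SAP18, a chromosome 13 gene, 11683 resistant and 5751 parental counts (1.03).

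Of 33 KAT complex subunits, 1 was lower, ATXN7 of the SAGA complex with 1030 resistant and 2125 parental counts (-1.03), and the median was -0.22. Heterochromatin and methyl-CpG readers had a median of 0.06 over 13 genes, with 0 called, MORC2 at -0.63 and MPHOSPH8, a chromosome 13 gene, at 0.63. Of 36 enzymes of the same kinds with other names, 1 was higher and 4 lower, with a median of -0.14. PRDM9, the H3K4 methyltransferase of meiosis, had 253 resistant and 80 parental counts (1.66). The lower ones were the coactivator NCOA1 with 891 resistant and 2216 parental counts (-1.30), HR with 56 resistant and 127 parental counts (-1.16), NAA60 with 71 resistant and 148 parental counts (-1.04) and the demethylase PHF8, named after its values were seen, with 64 resistant and 131 parental counts (-1.01). In each of these lists the shares called stand beside the 5.13% higher and 8.61% lower among coding genes given above.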

How the data were processed

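The authors deposited whole-number counts and FPKM values per Ensembl gene for both libraries, per the file headers. RSEM 1.2.3 and hg19 appear, per the submitters' processing notes, with no role stated. Libraries were strand-specific ScriptSeq preparations of total RNA, per the labels' protocols. The sources used here do not give the annotation, the strand setting or any rounding of counts, so genes that overlap another gene (21 of the 75) or have close paralogs are uncertain.

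Symbols came from a gene name table (29536 identifiers matched) and gene types, chromosomes and transcripts from GENCODE release 29 (29719). That release is on another build, so no gene coordinates on hg19 are given. Deposited counts were scaled with TMM factors (edgeR 4.0.16, R 4.3.3). Log2 ratios used a prior of 1 count, and intervals were exact conditional (Clopper-Pearson) 95% intervals. With 1 library per group no test was run. The length trend was a lowess fit over all 15102 genes at 50 counts. The calculations were tested on simulated data. Members, classes and lists were chosen with earlier results of these data known. All members could be named, with up to 4 called members of each other list, or the 2 largest differences. A listed gene is not reported here. Python 3.11.15, numpy 2.4.6, pandas 2.3.3, scipy 1.17.1, statsmodels 0.14.6 and matplotlib 3.10.9 were used. Alternatives covered scaling, prior, minimum, fold size, FPKM and length.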

Additional observations from a re-analysis of the deposited data

How the results depend on the processing

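The use of full-length genes alone and the subtraction of neighbours were chosen after seeing the data. The 3 higher and 8 lower genes became 4 and 5 with the length trend removed, 0 and 3 with a minimum of 200 counts, 14 and 24 at 1.5-fold and 0 and 1 at 4-fold, the last 3 following from fewer or more genes passing. Under the other alternatives they ranged from 3 to 4 and from 7 to 10. Across settings KMT2D, TET3, PRMT9, DNMT3B, HDAC4, KAT2B, KDM7A and SETD1A crossed the 2-fold size, and KDM8 joined the higher genes with no minimum. Under every scaling the all-gene median stayed within 0.1 of 0.06.

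Among 675 values of single genes, 0 of called genes changed sign and 35 moved beyond the counting interval. Of uncalled genes, 6 turned positive with the length trend removed, KAT6B (0.17), KDM2A (0.13), KMT2A (0.04), SETD2 (0.13), SIRT5 (0.10) and TET1 (0.20). In that setting the median over all 15102 genes was 0.14, so KDM2A, KMT2A, SETD2 and SIRT5 stayed below it. SIRT5, at -0.03, also turned with the upper quartile and the FPKM values. With the length trend removed the median of all 75 genes was 0.04, that of lysine methyl writers 0.04, of acetyl writers 0.07 and of arginine methyl writers 0.73. With full-length genes alone it was -0.46 for all genes, 0.21 for DNA methyl enzymes, -1.28 for acetyl writers (KAT2B alone) and -0.87 for lysine methyl erasers. With neighbours subtracted it was -0.09 for acetyl erasers, 0.31 for arginine methyl writers and -0.24 for lysine methyl writers. Acetyl erasers were at -0.11 with a minimum of 200 counts, and means were -0.17 for lysine methyl erasers and -0.14 for lysine methyl writers. The cause was not tested. No paired analysis was possible because each group has 1 library.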
